A study of Homo sapiens with 23 samples.

Results

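The gene expression of Caco-2 and HepG2 cells was compared in the mono-culture controls of the 1-day experiment. Caco-2 is an established human colorectal adenocarcinoma line that stands for the gut, and HepG2 is an established human hepatocellular carcinoma line that stands for the liver. The comparison held 3 libraries of each line, 6 of the 23 libraries of the series, and covered every gene with a mean of at least 1 TPM (transcript abundance scaled by transcript length and library total) in either line. Of 60564 genes listed in each library, 15505 met this rule, which uses the level of a gene and not the difference between the lines.

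Each line was kept alone in its chamber of a chip that joins gut and liver chambers (iGLC), in medium without added free fatty acids (FFAs), and was harvested after 1 day. The sample names of all 6 libraries give no other treatment. The labels give a low-serum medium for this day, whereas the methods of the study describe medium without serum and with albumin. These methods also describe starvation in serum-free medium before the FFA treatment, and circulation of the medium by a pump. The other 17 libraries came from the same lines with 1 mM FFAs, in co-culture, or both, and serve here as libraries in which the same difference between the lines could be measured again. Both lines are single immortalised cancer lines, so a difference between them joins the organ of origin with whatever is particular to each tumour, and these cannot be told apart. The study describes its replicates as biological and its mRNA-seq as done in at least 2 independent experiments. The labels do not say which libraries came from which experiment, so p-values measure the spread between these libraries, part of which may be technical.

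The intestinal epithelium is a sheet of polarised absorptive cells whose free surface is folded into microvilli, the brush border, where digestive enzymes and nutrient transporters sit. Its identity in the adult gut is set by the homeobox factor CDX2. The hepatocyte makes most plasma proteins, stores and releases glucose, builds lipoproteins and bile acids, and detoxifies drugs, under a network of HNF4, FOXA and CEBP factors. Gut and liver both arise from the embryonic endoderm and share part of this network, and tumour lines of both keep some fetal programmes.

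The 6 marker genes of the lines followed the labels, with 1 gene that was present in both. CDX2 (ENSG00000165556, GRCh38 chr13:27960918-27969315) was at 81, 60.4 and 88.1 TPM in the 3 Caco-2 libraries (mean 76.5 ± 14.4, SD, n = 3) and at 0.02, 0.49 and 0.11 TPM in the 3 HepG2 libraries. CDH17 (ENSG00000079112), the adhesion protein of the intestinal epithelium, was at 428, 414 and 354 TPM in Caco-2 cells and at 0.76, 0.38 and 0.05 TPM in HepG2 cells. For both genes the lines were far apart, and no HepG2 library reached 1 TPM. VIL1 (ENSG00000127831), which encodes the microvillus protein villin, was at 470.4, 418 and 408 TPM in Caco-2 cells and at 243, 233 and 200.3 TPM in HepG2 cells. VIL1 was thus abundant in both lines, and its log2 difference of 0.94 ± 0.10 (SE, Caco-2 minus HepG2, n = 3 per line, limma adjusted p = 0.000132) was the smallest among the 6 markers.

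On the liver side, ALB (ENSG00000163631, chr4:73397114-73421482), the gene of serum albumin, was at 33449, 33859 and 25169 TPM in HepG2 cells and at 604, 510.2 and 321 TPM in Caco-2 cells. APOA2 (ENSG00000158874), an apolipoprotein of high-density lipoprotein, was at 28937, 29904 and 22317 TPM in HepG2 cells and at 2074, 1992 and 2527 TPM in Caco-2 cells. Neither gene was off in Caco-2 cells, whose mean stood at 1.55% of the HepG2 mean for ALB and at 8.12% for APOA2. In such bulk libraries, fewer cells with a transcript and less of it per cell cannot be told apart. SPP1 (ENSG00000118785), the secreted phosphoprotein osteopontin, was at 659.9, 425 and 1098 TPM in HepG2 cells and at 0.17, 0.96 and 0.23 TPM in Caco-2 cells, a log2 difference of -8.90 ± 0.35 (SE, limma adjusted p = 6.46e-07). SPP1 was thus nearly absent from Caco-2 cells, unlike ALB and APOA2, and no library of one line reached the range of the other for any of the 6 genes.

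Promoter sequences are shown for marker genes of both lines, because such windows can hold the letters that general, liver and gut factors read. They are the 250 bases before the annotated start, from RefSeq on GRCh38.p14, written 5′ to 3′ on the strand of the gene. The gene spans printed here are from GENCODE 44, whose starts can differ, so the ALB window lies inside the span printed for ALB. The windows are chr4:73404037-73404286 (plus strand) for ALB, chr1:161223629-161223878 (minus strand) for APOA2, chr4:87975464-87975713 (plus strand) for SPP1 and chr13:27969316-27969565 (minus strand) for CDX2. Capitals mark matches on either strand to CCAAT, the CCAAT box of many promoters, to CAAAGT, a core of the HNF4 motif, or to TTTATG, a core of the CDX motif.
ALB: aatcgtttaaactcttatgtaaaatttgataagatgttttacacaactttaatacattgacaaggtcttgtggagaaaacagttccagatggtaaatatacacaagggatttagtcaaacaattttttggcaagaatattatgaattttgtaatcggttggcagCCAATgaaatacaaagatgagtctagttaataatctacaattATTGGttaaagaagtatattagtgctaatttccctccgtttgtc
APOA2: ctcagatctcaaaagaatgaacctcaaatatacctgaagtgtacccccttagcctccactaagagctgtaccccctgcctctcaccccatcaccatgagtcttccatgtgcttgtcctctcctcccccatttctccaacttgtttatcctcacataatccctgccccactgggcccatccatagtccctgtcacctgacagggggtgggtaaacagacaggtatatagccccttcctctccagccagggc
SPP1: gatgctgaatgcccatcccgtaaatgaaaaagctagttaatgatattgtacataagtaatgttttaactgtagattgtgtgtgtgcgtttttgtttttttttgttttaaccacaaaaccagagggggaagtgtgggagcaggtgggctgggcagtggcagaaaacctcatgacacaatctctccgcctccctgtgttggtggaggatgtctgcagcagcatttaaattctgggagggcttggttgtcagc
CDX2: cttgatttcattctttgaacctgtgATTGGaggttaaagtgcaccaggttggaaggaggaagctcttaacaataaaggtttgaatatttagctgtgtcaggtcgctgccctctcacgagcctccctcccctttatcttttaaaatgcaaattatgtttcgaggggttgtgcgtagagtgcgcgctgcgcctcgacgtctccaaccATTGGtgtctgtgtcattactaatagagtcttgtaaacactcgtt
The ALB window held 2 matches, both to CCAAT, with their first bases 86 (the strand of the gene) and 44 (the other strand) bases before the start. The CDX2 window held 2 matches to the same letters on the other strand, 225 and 45 bases before the start, and the APOA2 and SPP1 windows held 0. CCAAT was found in 32.0% of all 35116 promoter windows of the table, CAAAGT in 10.3% and TTTATG in 9.64%. A match is a run of letters and not a bound site. Among windows of genes at least 4-fold higher in Caco-2 cells, CCAAT was found in 27.7%, CAAAGT in 10.6% and TTTATG in 8.29%. For those at least 4-fold higher in HepG2 cells the shares were 28.8%, 10.4% and 7.02%, and for genes tested 32.7%, 7.69% and 5.45%. These shares are descriptions with no test. Windows were found for 849 of the 1241 such Caco-2 genes, 522 of the 811 such HepG2 genes and 10713 of the 15505 genes tested.

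The lines differed in most genes. limma on log2(TPM + 1), with Benjamini-Hochberg adjustment over the 15505 genes at 0.05, called 9958 genes, which is 64.2% of those tested. Of these, 6199 (40.0%) were higher in Caco-2 cells and 3759 (24.2%) were higher in HepG2 cells, and 5547 were not called. The balance of the directions depended on the scaling: median-of-ratios scaling gave 5025 higher in Caco-2 and 4657 higher in HepG2 cells, and quantile normalization gave 4892 and 4932. The median log2 difference of all genes tested was 0.22 in the TPM as deposited and 0.026 after median-of-ratios scaling. The differences below stand against this median of 0.22, and neither scaling turned the sign of the median of any gene list described below. Counts of calls in each gene list stand against the 40.0% higher in Caco-2 and 24.2% higher in HepG2 cells over all genes tested. A difference on the log2(TPM + 1) scale understates the change of genes near or below 1 TPM.

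A difference of at least 2 on the log2(TPM + 1) scale, that is 4-fold, was called for 1241 genes (8.004%) in favour of Caco-2 cells and 811 genes (5.23%) in favour of HepG2 cells. The 3 libraries of one line did not overlap those of the other for 69.8% of genes. In 325 genes every Caco-2 library had at least 10 TPM and every HepG2 library at most 1 TPM, and the reverse held for 142 genes. Among the 12905 protein-coding genes tested, 5560 were higher in Caco-2 and 2959 in HepG2 cells, whereas among the 1727 lncRNA genes 445 were higher in Caco-2 and 571 in HepG2 cells.

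**Figure D1:**
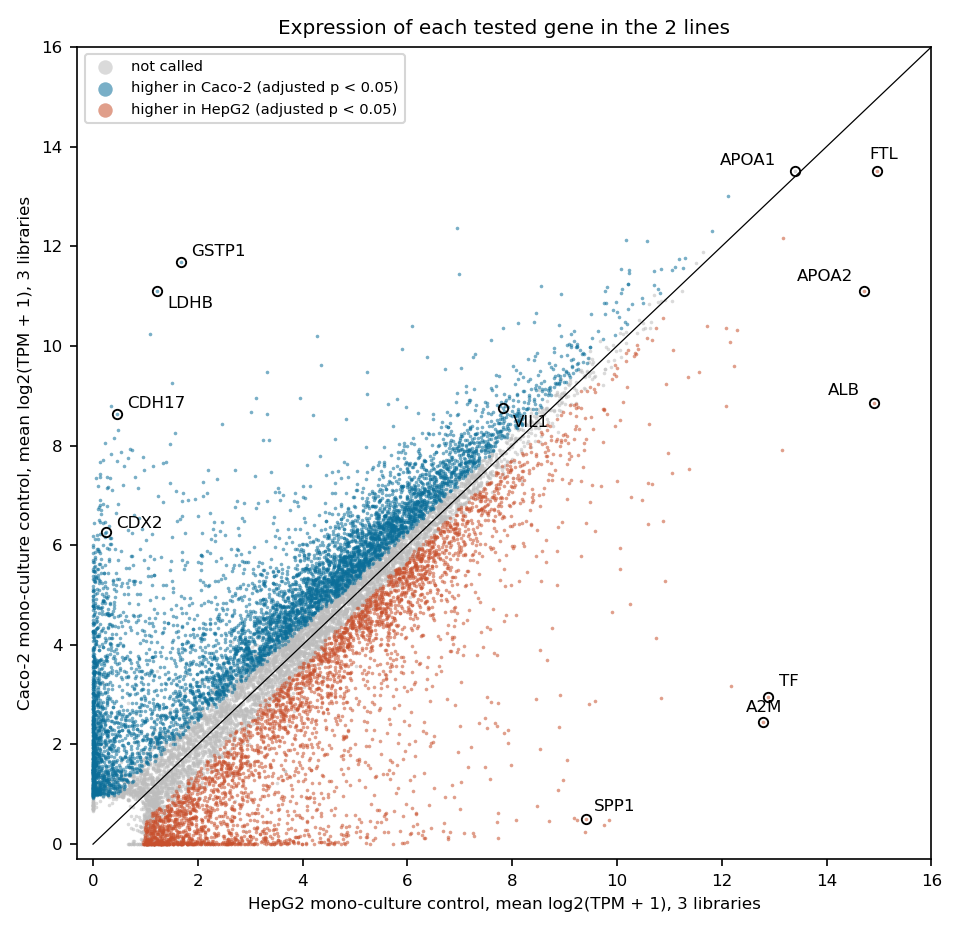
Each point is 1 tested gene, plotted by its mean log2(TPM + 1) over the 3 HepG2 libraries (horizontal axis) and over the 3 Caco-2 libraries (vertical axis), and coloured by the limma call at an adjusted p of 0.05. GSTP1, LDHB, CDH17 and CDX2 lie at the upper left, TF, A2M and SPP1 at the lower right, and APOA1 and VIL1 close to the line of equal level.

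Replicates of a line resembled each other far more than they resembled the other line. Over the genes tested, Pearson's r between libraries of a line was 0.975 to 0.986, and between libraries of different lines 0.773 to 0.785 (across genes, which are not independent). HepG2 libraries were more concentrated: their 10 most abundant genes took 13.7% to 15.1% of all TPM, against 5.95% to 6.64% in Caco-2 libraries. The part of this in the median of 0.22 was not tested. HepG2 replicate 3 differed from the other HepG2 libraries in single genes. Values without it are given below for SERPINA3, HP, CDH1, HPX, HOXC9, ACSL1 and IGF2. Other named genes also stood apart in it, such as HK1, C1R, COL1A1 and ACTA1, each highest there among the HepG2 libraries. No value without it is given for these. Caco-2 replicate 3 also stood apart in named genes such as APOA1, C3, GSTA1, PHGR1 and ANPEP, each lowest there among the Caco-2 libraries. In both lines r was highest between replicates 1 and 2, at 0.986 in Caco-2 and 0.983 in HepG2 cells. The depth of the libraries is unknown, because TPM keep no read numbers.

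The genes with the largest excess in HepG2 cells were mostly secreted proteins of the fetal and adult liver. A2M (ENSG00000175899, chr12:9067664-9116229), the broad protease inhibitor alpha-2-macroglobulin, was at 7927, 7468 and 5974 TPM in HepG2 cells and at 5.24, 6.15 and 2.61 TPM in Caco-2 cells, with a log2 difference of -10.34 ± 0.25 (SE, limma adjusted p = 8.88e-08). TF (ENSG00000091513, chr3:133746040-133796641), the plasma iron carrier transferrin, was at 6802, 8767 and 7265 TPM in HepG2 cells against 6.41, 9.45 and 5.11 TPM in Caco-2 cells, a log2 difference of -9.92 ± 0.20. AMBP, the precursor of alpha-1-microglobulin and bikunin, was at 4031, 4792 and 5068 TPM in HepG2 and 8.23, 9.64 and 6.47 TPM in Caco-2 cells. In these 3 plasma protein genes Caco-2 cells held 0.0655%, 0.0918% and 0.175% of the HepG2 mean, shares far below that of ALB.

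Several other leading HepG2 genes act in growth control. DLK1, a membrane protein of fetal hepatoblasts, was at 818, 953 and 832 TPM in HepG2 cells and at 0.2, 0.69 and 0.09 TPM in Caco-2 cells. IGFBP1, a liver binding protein of the insulin-like growth factors, was at 722, 856 and 1280.4 TPM in HepG2 and 0.46, 0.36 and 0.38 TPM in Caco-2 cells. FST, the activin antagonist follistatin, was at 646, 484 and 610.2 TPM in HepG2 and 0.53, 0.33 and 0.48 TPM in Caco-2 cells. Caco-2 libraries stayed under 1 TPM in all of these. The remaining leading HepG2 genes were BPIFB2 (log2 difference -9.15), APOC2 (-8.75), the activator of lipoprotein lipase, SERPINA7 (-8.22), thyroxine-binding globulin, DHRS2 (-7.91), a short-chain dehydrogenase, and FGL1 (-7.80), a fibrinogen-like protein secreted by the liver.

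The genes with the largest excess in Caco-2 cells included enzymes that most cells carry. GSTP1 (ENSG00000084207, chr11:67583742-67586656), the pi-class glutathione transferase, was at 3287, 3346 and 3219.6 TPM in Caco-2 cells and at 3.02, 3.63 and 0.77 TPM in HepG2 cells, a log2 difference of 10.00 ± 0.32 (SE, limma adjusted p = 2.64e-07). LDHB (ENSG00000111716, chr12:21635342-21757857), the heart-type subunit of lactate dehydrogenase, was at 2297, 2256 and 2050.1 TPM in Caco-2 cells and at 1.73, 2.16 and 0.46 TPM in HepG2 cells, a log2 difference of 9.88 ± 0.26. HepG2 cells thus held 0.0753% of the Caco-2 mean of GSTP1 and 0.0659% of that of LDHB. LDHA, the muscle-type subunit, which was looked up after these values were seen, was at 677, 771 and 572 TPM in Caco-2 cells and at 980.1, 874 and 1216 TPM in HepG2 cells. It was the higher in HepG2 cells (log2 difference -0.60 ± 0.15, SE, limma adjusted p = 0.00927), so the 2 subunits differed between the lines in opposite directions.

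Because GSTP1 and LDHB led the Caco-2 genes, their promoter windows are shown as well, a choice made after their values were seen. They are chr11:67583562-67583811 (plus strand) and chr12:21657843-21658092 (minus strand) on GRCh38.p14, the 250 bases before the RefSeq start, with each CpG dinucleotide in capitals. The LDHB window lies inside the GENCODE span printed above, and the GSTP1 window overlaps the start of its span.
GSTP1: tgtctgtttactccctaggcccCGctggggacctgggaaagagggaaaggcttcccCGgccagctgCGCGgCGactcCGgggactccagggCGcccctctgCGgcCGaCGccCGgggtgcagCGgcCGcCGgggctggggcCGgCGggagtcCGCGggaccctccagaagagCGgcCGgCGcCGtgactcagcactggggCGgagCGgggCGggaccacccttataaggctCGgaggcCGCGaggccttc
LDHB: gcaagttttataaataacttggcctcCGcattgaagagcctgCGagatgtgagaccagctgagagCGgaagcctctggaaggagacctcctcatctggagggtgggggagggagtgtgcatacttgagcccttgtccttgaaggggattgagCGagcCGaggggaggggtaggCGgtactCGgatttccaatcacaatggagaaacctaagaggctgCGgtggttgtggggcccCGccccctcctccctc
The GSTP1 window held 28 CpG dinucleotides and the LDHB window 9. The median was 11 over all windows of the table and 20 over those of the genes tested. The ALB, APOA2, SPP1 and CDX2 windows printed above held 3, 0, 3 and 10.

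A second group of leading Caco-2 genes belongs to the epithelial surface. SPINT2, a membrane inhibitor of serine proteases, was at 1192, 1214 and 1241 TPM in Caco-2 cells and at 1.04, 1.8 and 0.66 TPM in HepG2 cells. ST14, the membrane serine protease matriptase that SPINT2 inhibits, was at 609, 604 and 622 TPM in Caco-2 and 2.17, 2.01 and 1.38 TPM in HepG2 cells. The related inhibitor SPINT1, looked up after these values were seen, was at 355, 398 and 472 TPM in Caco-2 and 13.4, 5.83 and 4.4 TPM in HepG2 cells. Protease and both inhibitors were thus all higher in Caco-2 cells. CLDN7, a claudin of tight junctions and the lateral membrane, was at 433, 456 and 446 TPM in Caco-2 cells against 0.31, 0.52 and 0.02 TPM. LAMB3, a chain of the basement membrane laminin of epithelia, was at 316, 299 and 334 TPM in Caco-2 and 0.35, 0.87 and 0.08 TPM in HepG2 cells.

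Others of this group act in lipid metabolism. INSIG1, the endoplasmic reticulum anchor that holds back sterol synthesis, was at 263, 331 and 256 TPM in Caco-2 cells and at 0.28, 0.27 and 0.39 TPM in HepG2 cells. Its homologue INSIG2, looked up after these values were seen, was at 44.3, 46.8 and 43.98 TPM in Caco-2 cells and at 214, 223 and 253 TPM in HepG2 cells. The homologues therefore differed in opposite directions (log2 difference 7.75 ± 0.14 for INSIG1 and -2.32 ± 0.09 for INSIG2, SE). G0S2, the inhibitor of the lipase PNPLA2, was at 260.1, 199.7 and 160.4 TPM in Caco-2 and 0, 0.25 and 0.05 TPM in HepG2 cells. The lipocalin APOD was at 243, 254 and 299 TPM in Caco-2 and 0, 0.39 and 0.16 TPM in HepG2 cells. HTATIP2 (log2 difference 7.52) and ACTL8 (7.49) completed the 12 leading Caco-2 genes.

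**Figure D2:**
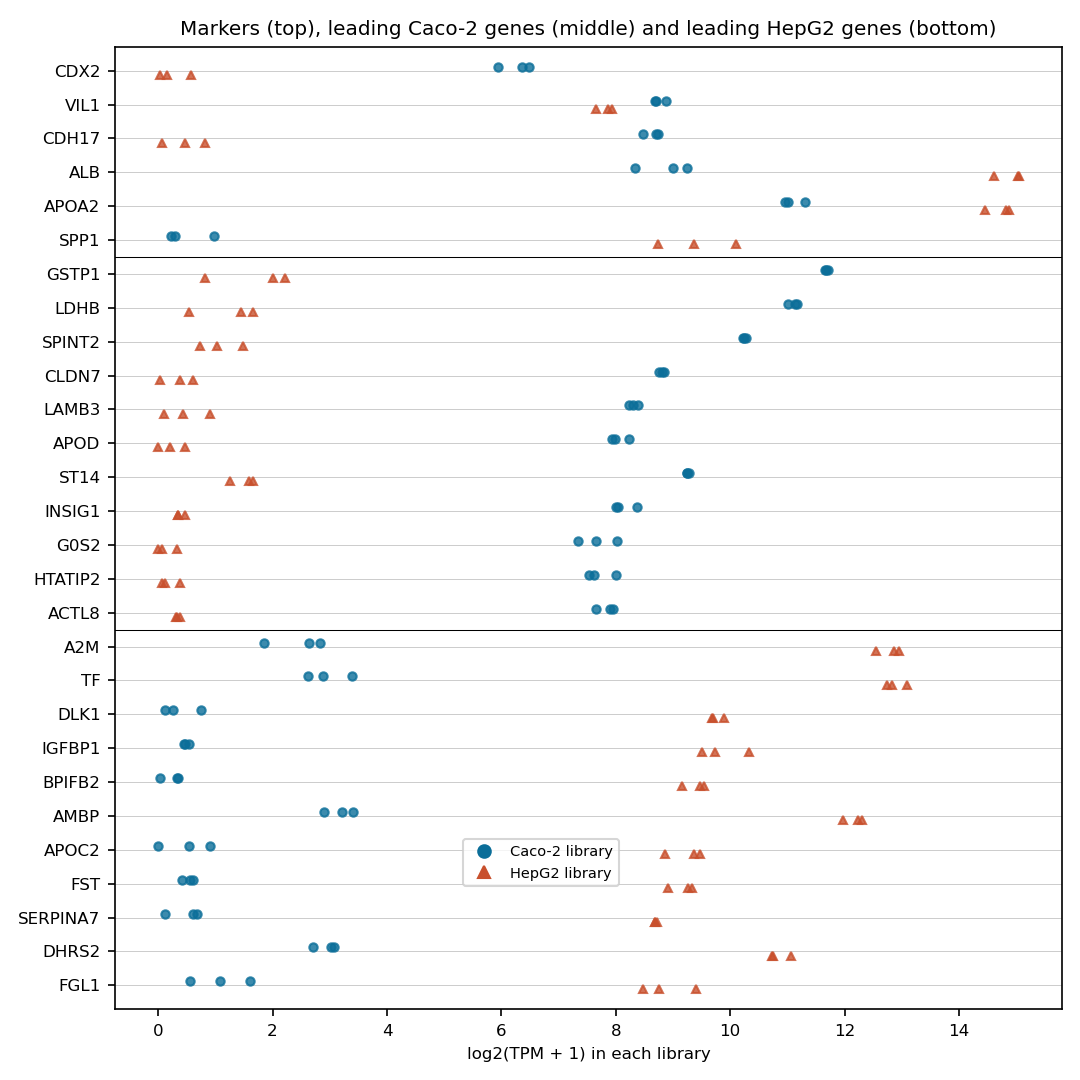
Points give log2(TPM + 1) in each of the 3 Caco-2 libraries (circles) and the 3 HepG2 libraries (triangles) for the 6 markers and for the genes with the largest called differences without overlap. The leading genes were taken only where the libraries of the lines are apart. The 6 markers are apart as well, and VIL1 has the smallest gap.

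The most abundant transcripts were partly shared. APOA1, the main protein of high-density lipoprotein, was the most abundant gene of Caco-2 cells and the fourth of HepG2 cells, at 15005, 13853 and 7545 TPM and at 10236, 12673 and 9713 TPM, ranges that overlapped (log2 difference 0.11 ± 0.25, SE, limma adjusted p = 0.735, sign turned under median-of-ratios scaling). Quantile normalization, which gives genes of equal rank the same value, called APOA1 higher in Caco-2 cells (log2 difference 1.38, adjusted p = 0.000238). That call followed the ranks of APOA1 and not its TPM, whose ranges overlapped. FTL and FTH1, the ferritin light and heavy chains that store iron, were among the top 8 of both lines. FTL was at 11169 to 12607 TPM in Caco-2 and at 30104 to 35339 TPM in HepG2 cells. FTH1 was at 4184 to 5199 TPM in Caco-2 and 8379 to 10938 TPM in HepG2 cells, both higher in the latter. Quantile normalization removed both calls (adjusted p = 0.144 for FTH1). FTL was at rank 2 in Caco-2 and rank 1 in HepG2 cells by mean TPM. A normalization by rank therefore cannot show whether FTL differed. Copies of the ferritin genes elsewhere in the genome make these values less certain.

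The other top genes differed. In Caco-2 cells they were ACTB (7736 to 8796 TPM), GAPDH (4511 to 5316 TPM, not called under median-of-ratios scaling), the keratins KRT8 (4102 to 4796 TPM) and KRT18 (4127 to 4655 TPM), and SPINK1, a trypsin inhibitor, at 4929.8, 4922 and 6043 TPM against 214, 154 and 55.8 TPM in HepG2 cells. In HepG2 cells they were ALB, APOA2, TF, A2M and AFP, the fetal counterpart of albumin, at 9072, 8415 and 10014 TPM against 307, 268 and 170.1 TPM in Caco-2 cells. Among 168 genes with at least 500 TPM in all 6 libraries, the smallest differences were those of H3F3B (0.01), HINT1 (-0.02), RPL23 (0.02), RPS12 (-0.03) and EIF4A1 (0.03). They encode a histone, a nucleotide hydrolase, ribosomal proteins and a translation initiation factor.

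Among 31 tested transcription factors of gut and liver, 11 were higher in Caco-2 cells, 15 in HepG2 cells and 5 were not called, with a median difference of -0.57. Over all genes tested, 40.0% were higher in Caco-2 and 24.2% in HepG2 cells. HNF4A, which both organs use, was not called. It was at 108, 93.1 and 98.3 TPM in Caco-2 and at 88.2, 97.8 and 69.4 TPM in HepG2 cells (log2 difference 0.24 ± 0.14, SE, adjusted p = 0.162), and its ranges overlapped between the lines.

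Paralogous factors were divided between the lines. GATA6 was at 107, 109.8 and 138 TPM in Caco-2 cells and at 5.83, 6.6 and 4.83 TPM in HepG2 cells. GATA4 was the reverse, at 7.6, 3.92 and 2.41 TPM in Caco-2 and 64.5, 68.7 and 59.4 TPM in HepG2 cells. FOXA1 was at 219.9 to 261 TPM in Caco-2 and 49.4 to 66.4 TPM in HepG2 cells, while FOXA2 (log2 difference -0.57) and FOXA3 (-0.74) were higher in HepG2 cells. The GATA factors thus had a different leading member in each line, whereas FOXA1 was the most abundant FOXA gene in both. The FOXA3 call was lost when single libraries were left out (adjusted p up to 0.0716). The Caco-2 side further held KLF5 (108 to 140.2 against 1.78 to 3.66 TPM), a factor of crypt cells, ELF3 (107 to 146 against 11.02 to 18.9 TPM), an epithelial ETS factor, and ISX (18.01 to 22.3 against 4.07 to 7.22 TPM), the intestine-specific homeobox factor. CEBPA, best known from the liver, was also higher in Caco-2 cells, at 110.3 to 125 TPM in Caco-2 and 39.2 to 41.4 TPM in HepG2 cells.

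The HepG2 side held the bile acid receptor NR1H4 (FXR), at 32.4, 41.2 and 34.9 TPM against 0.18, 0.13 and 0.02 TPM in Caco-2 cells. The xenobiotic receptor NR1I2 (PXR) was at 20.96, 25.6 and 10.8 TPM in HepG2 and 0.65, 0.9 and 0.3 TPM in Caco-2 cells. It also held MLXIPL, the carbohydrate response factor ChREBP (81.4 to 154 against 3.91 to 11.2 TPM), HHEX (78.2 to 83.9 against 8.23 to 13.8 TPM), PROX1 (51.2 to 55.2 against 8.63 to 9.33 TPM) and ONECUT1 (3.06 to 5.18 against 0.03 to 0.2 TPM), factors of the developing liver. SOX9, a factor of intestinal crypts and bile ducts, was higher in HepG2 cells, at 160.1, 208 and 131 TPM in HepG2 and 61.2, 63.6 and 46.6 TPM in Caco-2 cells. CDX1 was listed at 0 in all 6 libraries.

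HOX genes, which mark position along the body axis, were mostly higher in Caco-2 cells. Of 39 HOX genes, 22 were tested, and 17 of these were higher in Caco-2 cells, 12 of them at least 4-fold, 1 was higher in HepG2 cells and 4 were not called. The median difference was 2.42. HOXB7 was at 37.7, 42.4 and 47.6 TPM in Caco-2 cells and at 0.06, 0.34 and 0.11 TPM in HepG2 cells. HOXC12 was at 33.4, 32.4 and 36.3 TPM in Caco-2 cells and was listed at 0 in all 3 HepG2 libraries. HOXA7 was at 43.5, 31.7 and 51.3 TPM in Caco-2 and 1.72, 0.83 and 1.3 TPM in HepG2 cells.

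The posterior end of 3 clusters was represented, with HOXA9 (15.3 to 20.6 TPM), HOXA10 (16.9 to 23.6 TPM), HOXA13 (1.46 to 2.54 TPM), HOXB13 (4.76 to 6.06 TPM), HOXC10 (7.79 to 16.5 TPM) and HOXC13 (12.9 to 15.9 TPM) in Caco-2 cells. In HepG2 cells none of these 6 genes exceeded 0.31 TPM. The D cluster went the other way: HOXD1 was at 13.1, 12.6 and 30.2 TPM in HepG2 cells and at 0.04, 0.08 and 0.07 TPM in Caco-2 cells (log2 difference -4.09 ± 0.32, SE, adjusted p = 2.12e-05), and no other HOXD gene reached the level of testing. Closer to the anterior end of the A cluster, HOXA6 was at 10.1, 6.47 and 7.7 TPM in Caco-2 and 3.07, 3.2 and 2.02 TPM in HepG2 cells, while HOXA3, HOXA4 and HOXA5 were not called. HOXA4 was at 3.51, 3.54 and 2.46 TPM in Caco-2 cells and at 3.76, 2.56 and 1.6 TPM in HepG2 cells. HOXC9, also not called, was at 0.24, 0.79 and 0.36 TPM in Caco-2 and 1.97, 1.05 and 0.45 TPM in HepG2 cells, and was called higher in HepG2 cells without HepG2 replicate 3 (log2 difference -0.77, adjusted p = 0.0418).

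**Figure D3:**
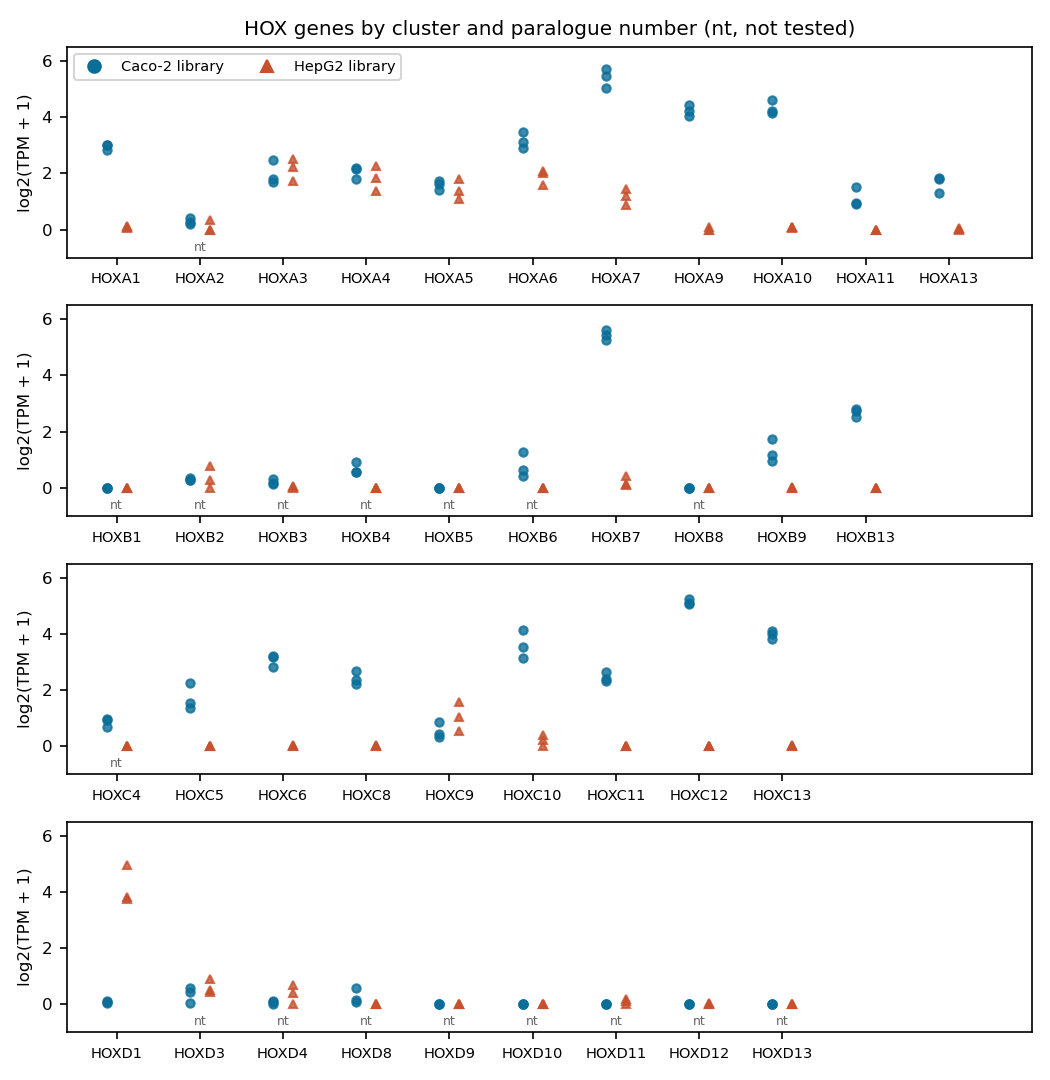
Each panel is 1 HOX cluster with genes ordered by paralogue number, and points give log2(TPM + 1) in the 3 Caco-2 (circles) and 3 HepG2 (triangles) libraries. Caco-2 points lie above HepG2 points for 17 called genes of clusters A, B and C, and HOXD1 is the reverse.

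Of 18 tested genes that build the brush border, 12 were higher in Caco-2 cells, 3 in HepG2 cells and 3 were not called (median difference 0.92). USH1C, the scaffold harmonin that links microvilli tips, was at 83.6, 76.97 and 61.3 TPM in Caco-2 cells and at 0.09, 0.19 and 0.02 TPM in HepG2 cells. Its partner in the same tip-link complex CDHR5 was at 162, 135 and 92.4 TPM in Caco-2 and 1.92, 1.84 and 0.56 TPM in HepG2 cells. The light chain CALML4 was at 70.4, 65.9 and 38.8 TPM in Caco-2 and 4.44, 5.09 and 2.17 TPM in HepG2 cells. CDHR2, the other cadherin of this complex, was the reverse, at 2.8, 2.31 and 1.62 TPM in Caco-2 and 30.3, 35.7 and 29.3 TPM in HepG2 cells. The tip-link cadherins of the intestine were therefore split, CDHR5 in Caco-2 and CDHR2 in HepG2 cells.

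Other core parts were shared in different amounts. EZR (ezrin) was at 292 to 324 TPM in Caco-2 and 72.7 to 83.9 TPM in HepG2 cells. MYO1A, the brush border myosin, was at 48.9 to 73.8 TPM in Caco-2 and 8.77 to 20.5 TPM in HepG2 cells, MISP at 76.3 to 107 TPM in Caco-2 and 3 to 11.9 TPM in HepG2 cells, and PDZK1 at 121 to 142 TPM in Caco-2 and 45.6 to 97.7 TPM in HepG2 cells. ESPN (32.2 to 51.98 against 52.5 to 95.96 TPM) and EPS8 (29.4 to 43.5 against 60.9 to 62.6 TPM), actin-bundling proteins of microvilli, were higher in HepG2 cells. The calls of PDZK1 and ESPN were lost when single libraries were left out, with adjusted p up to 0.053 for PDZK1 and 0.0663 for ESPN.

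Brush border enzymes and nutrient transporters were divided, with 10 of 19 tested higher in Caco-2 cells, 6 in HepG2 cells and 3 not called. Over all genes tested the shares were 40.0% for Caco-2 and 24.2% for HepG2 cells. The disaccharidase SI (sucrase-isomaltase) was at 9.81, 6.73 and 5.66 TPM in Caco-2 cells. LCT (lactase) was at 1.64, 1.72 and 0.93 TPM, while HepG2 libraries listed SI at 0 and LCT at no more than 0.01 TPM. ALPI, intestinal alkaline phosphatase, was at 18.9, 13.8 and 15.5 TPM in Caco-2 and 0.02, 0.02 and 0.1 TPM in HepG2 cells. The peptide transporter SLC15A1 (5.02 to 6.87 against 0.03 to 0.08 TPM) and the folate transporter SLC46A1 (111 to 174 against 20.7 to 44.7 TPM) were also higher in Caco-2 cells. So were the fructose transporter SLC2A5 (1.54 to 4.48 TPM, listed at 0 in HepG2 cells) and the peptidase DPP4 (349 to 360.4 against 89.5 to 122 TPM).

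Several genes of the absorptive cell were instead higher in HepG2 cells. ANPEP, aminopeptidase N, was at 211, 239 and 168 TPM in HepG2 cells and at 7.19, 5.65 and 1.88 TPM in Caco-2 cells (log2 difference -5.25 ± 0.36, SE, adjusted p = 1.09e-05). FABP1, the fatty acid binding protein of liver and proximal gut, was at 4399, 5816 and 4332 TPM in HepG2 and 997, 813 and 563 TPM in Caco-2 cells. FABP2, the intestinal form, was listed at 0 in all 3 Caco-2 libraries and stood at 0.93, 0.93 and 2.08 TPM in HepG2 cells. The glucose transporter SLC2A2, used by both organs, was at 38.9, 36.9 and 41.9 TPM in HepG2 and 2.8, 2.8 and 4.65 TPM in Caco-2 cells.

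Adhesion and tight junction genes favoured Caco-2 cells, with 15 of 23 tested higher there, 7 higher in HepG2 cells and 1 not called (median difference 1.70). The shares over all genes tested were 40.0% for Caco-2 and 24.2% for HepG2 cells. CDH1 (E-cadherin) was at 735, 702 and 699 TPM in Caco-2 cells and at 16.7, 14.03 and 2.82 TPM in HepG2 cells, and HepG2 replicate 3 was the lowest (log2 difference 6.15, and 5.45 without that library). EPCAM was at 1298 to 1354 TPM in Caco-2 and 213 to 248 TPM in HepG2 cells, OCLN (occludin) at 311 to 388 TPM in Caco-2 and 47.2 to 55.9 TPM in HepG2 cells, and CGN (cingulin) at 144 to 164 TPM in Caco-2 and 1.78 to 5.71 TPM in HepG2 cells. Of the zonula occludens scaffolds, TJP1 (1.26) and TJP3 (3.70) were higher in Caco-2 cells, as log2 differences.

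The claudins, which set what passes between cells, differed member by member. CLDN4 was at 1008, 1024 and 1355 TPM in Caco-2 cells and at 247, 220.3 and 129 TPM in HepG2 cells. CLDN3 was at 36.2, 28.4 and 43.9 TPM in Caco-2 and 4.89, 7.12 and 1.1 TPM in HepG2 cells. CLDN6, a claudin of embryonic epithelia, was at 66.1, 37.4 and 8.37 TPM in HepG2 cells and at 0.07, 0.18 and 0.29 TPM in Caco-2 cells, with a wide spread among the HepG2 libraries. CLDN14 (1.48 to 3.29 against 0 to 0.08 TPM) and CLDN12 (42.4 to 74.7 against 32.4 to 34.5 TPM) were also higher in HepG2 cells. CLDN7, CLDN4 and CLDN3 were therefore on the Caco-2 side, and CLDN6, CLDN12 and CLDN14 on the HepG2 side. CLDN1 was at 39.4 to 63.7 TPM in Caco-2 and 27.5 to 38.5 TPM in HepG2 cells, a call lost under median-of-ratios scaling (adjusted p = 0.0547), and that of CLDN12 was lost in the fit of all 23 libraries (adjusted p = 0.0542).

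Keratins and intestinal surface proteins favoured Caco-2 cells, with 20 of 24 tested higher there, 16 of them at least 4-fold, and 4 higher in HepG2 cells (median difference 3.21). KRT19 was at 2626, 2268 and 2211 TPM in Caco-2 cells and at 672, 385 and 203 TPM in HepG2 cells, and the calcium-binding proteins S100A10 (2532 to 2918 against 86.8 to 175 TPM) and S100A14 (283 to 321 against 1.17 to 2.76 TPM) followed it. The 3 trefoil peptides were all higher, TFF1 at 75.5, 60.9 and 56.1, TFF2 at 63.6, 49.7 and 28.3 and TFF3 at 393, 369 and 404 TPM in Caco-2 cells, with TFF2 listed at 0 and TFF1 under 0.5 TPM in HepG2 cells. AGR2, a chaperone of mucin folding, was at 402 to 550.2 TPM in Caco-2 and 2.05 to 13.7 TPM in HepG2 cells.

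CEACAM5 (32.1, 29.8 and 19.2 TPM), CEACAM6 (24.3, 27.9 and 15.03 TPM) and PHGR1 (87.6, 82.6 and 31.6 TPM) were listed at 0 in all 3 HepG2 libraries. Within the same family CEACAM1 was the reverse, at 100.2, 111 and 125 TPM in HepG2 cells and at 16.5, 16.3 and 9.5 TPM in Caco-2 cells. S100P, often studied as a carcinoma marker, was at 1181, 1335 and 1811 TPM in HepG2 and 84.3, 106 and 192 TPM in Caco-2 cells. KRT20, a marker of differentiated enterocytes, was low, at 2.13, 1.56 and 0.7 TPM in Caco-2 cells and at 0.53, 0.14 and 0.02 TPM in HepG2 cells, and its call was lost under quantile normalization (adjusted p = 0.0614).

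**Figure D4:**
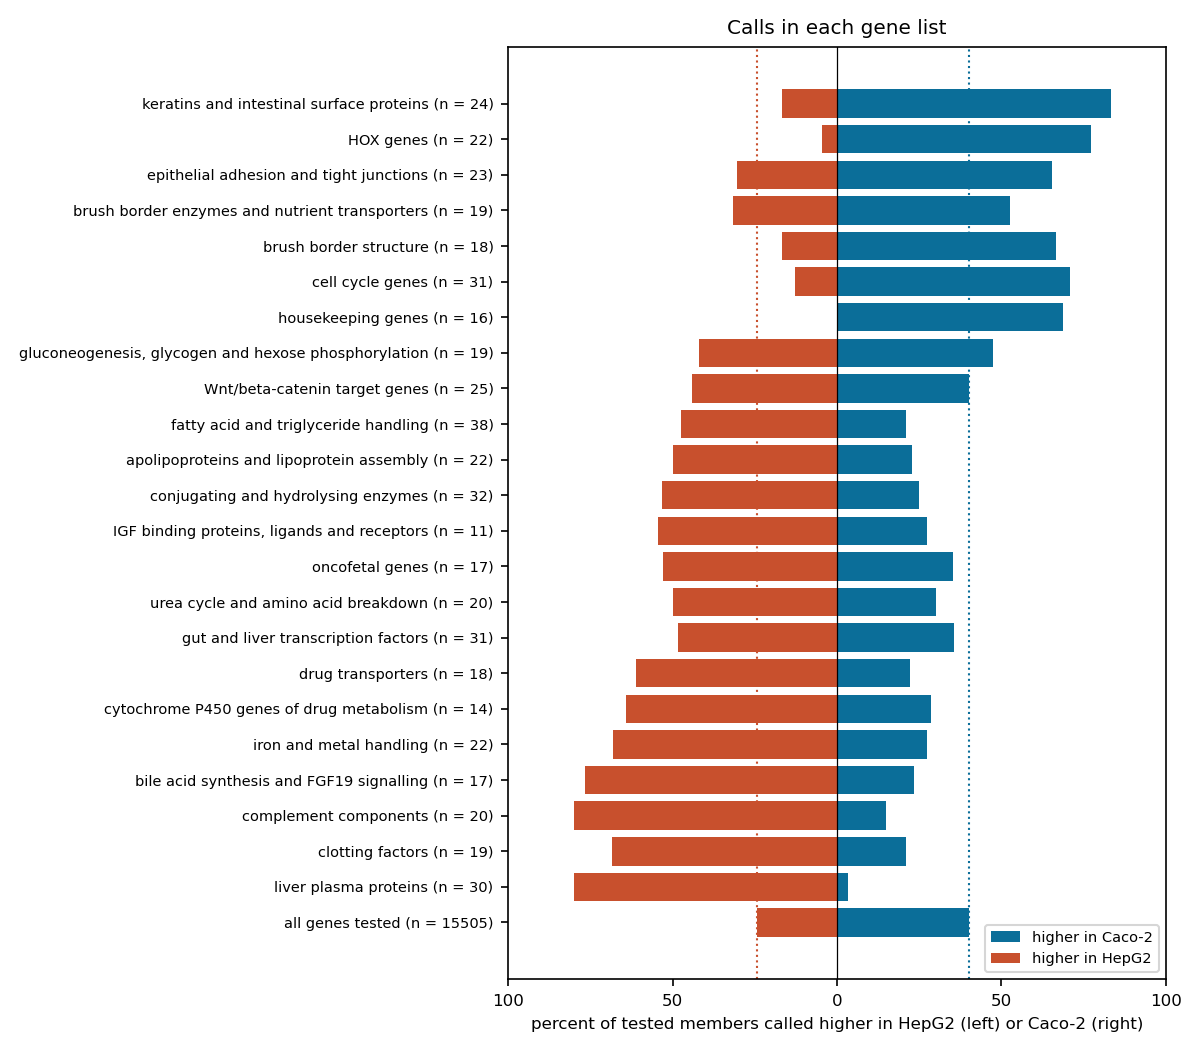
Bars give the percent of tested members of each gene list that were called higher in Caco-2 cells (right) or in HepG2 cells (left), lists ordered by their median difference. Dotted lines and the lowest bar give the shares over all 15505 genes tested, 40.0% and 24.2%.

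Plasma protein genes ran the other way. Of 30 tested, 24 were higher in HepG2 cells, 19 of them at least 4-fold, 1 was higher in Caco-2 cells and 5 were not called (median difference -3.41). They differed in how far they were retained in Caco-2 cells. SERPINA1, alpha-1-antitrypsin, was at 1598, 1419.8 and 1072 TPM in Caco-2 and at 2800.1, 3162 and 4319.6 TPM in HepG2 cells. AHSG, fetuin-A, was at 1554, 1269.8 and 1036 TPM in Caco-2 and 4872, 5342 and 4852 TPM in HepG2 cells. RBP4, the plasma carrier of retinol, was at 501 to 661 TPM in Caco-2 and 1859 to 2163 TPM in HepG2 cells. Caco-2 cells thus held 39.8% of the HepG2 mean of SERPINA1, 25.6% of AHSG and 30.8% of RBP4.

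VTN, vitronectin, was the exception, at 1784, 1607 and 1015 TPM in Caco-2 cells and at 324, 349 and 351 TPM in HepG2 cells (log2 difference 2.06 ± 0.20, SE, adjusted p = 5.93e-05). TTR (transthyretin) was at 294, 263 and 273 TPM in Caco-2 and 649, 616 and 343 TPM in HepG2 cells, higher in HepG2 cells. HPX (hemopexin) was not called, at 17.4, 19.3 and 15.2 TPM in Caco-2 and 9.66, 6.86 and 22.6 TPM in HepG2 cells, and neither was SERPINA10, at 22.5, 20.7 and 28.2 TPM in Caco-2 and 26.3, 29.03 and 27.4 TPM in HepG2 cells. SERPINA10 was called higher in HepG2 cells under median-of-ratios scaling (adjusted p = 0.0302). The acute-phase genes SERPINA3 (236, 287 and 2186 TPM in HepG2 cells, 1.16 to 3.45 TPM in Caco-2 cells) and HP, haptoglobin (112, 133 and 815 and 1.88 to 5.35 TPM), were much higher in HepG2 replicate 3 than in the other HepG2 libraries. Without that library the HepG2 mean fell from 903 to 262 TPM for SERPINA3 and from 353 to 122 TPM for HP, and both were still called higher in HepG2 cells (log2 difference -6.35 and -4.71). HPX, with the highest HepG2 value in the same library, was called higher in Caco-2 cells without it (log2 difference 0.99, adjusted p = 0.00361).

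Of 19 tested clotting factors, 13 were higher in HepG2 cells, 4 in Caco-2 cells and 2 were not called (median difference -3.06). The 3 fibrinogen chains were all higher in HepG2 cells. FGA was at 1677, 2046 and 2109 TPM in HepG2 and 38.9, 32.6 and 42.9 TPM in Caco-2 cells. FGB was at 1869 to 1940.3 TPM and 77.9 to 103 TPM, and FGG at 3508 to 5106 TPM and 385 to 529 TPM, in HepG2 and Caco-2 cells. F11 was at 44.4 to 71.8 TPM in HepG2 cells and at no more than 0.04 TPM in Caco-2 cells. F2 (prothrombin) was at 118 to 179 TPM in Caco-2 and 698 to 768 TPM in HepG2 cells, whereas F10 was not called, at 147, 131 and 94.3 TPM in Caco-2 and 154, 144 and 159 TPM in HepG2 cells, but was called higher in HepG2 cells under median-of-ratios scaling (adjusted p = 0.03). KNG1, the kininogen precursor, was higher in Caco-2 cells, at 25.2, 22.1 and 24.3 TPM in Caco-2 and 1.98, 1.19 and 1.57 TPM in HepG2 cells, as was F7, at 40.1 to 49.2 TPM in Caco-2 and 24.98 to 29.1 TPM in HepG2 cells.

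Of 20 tested complement genes, 16 were higher in HepG2 cells, 3 in Caco-2 cells and 1 was not called (median difference -2.59). C3 was at 1522, 1921 and 1746 TPM in HepG2 cells and at 25.7, 26.8 and 6.21 TPM in Caco-2 cells. CFI, the protease that shuts complement off, was at 228 to 335 TPM in HepG2 and 0.13 to 0.65 TPM in Caco-2 cells. C4A (297 to 432 against 0.53 to 0.8 TPM) and C4B (178 to 261 against 0.24 to 1.15 TPM) are near-identical copies, so the split of reads between them is uncertain. The first proteases of the classical pathway, C1R (14.4 to 22.7 against 2 to 5.49 TPM) and C1S (23.4 to 31.8 against 13.4 to 17.5 TPM), and the surface inhibitor CD55 (103 to 192 against 28.8 to 53.2 TPM) were higher in Caco-2 cells. CD59 was at 99.4 to 121 TPM in Caco-2 and 113 to 132 TPM in HepG2 cells and was not called.

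Apolipoproteins and lipoprotein assembly leaned to HepG2 cells, with 11 of 22 higher there, 5 in Caco-2 cells and 6 not called (median difference -0.45). Over all genes tested, 24.2% were higher in HepG2 and 40.0% in Caco-2 cells. APOB, the backbone of chylomicrons and very-low-density lipoprotein, was at 1113, 1615 and 2052 TPM in HepG2 cells and at 164, 162 and 131 TPM in Caco-2 cells. MTTP, the transfer protein that loads APOB with lipid, was at 127, 158 and 109 TPM in HepG2 and 10.5, 11.5 and 4.95 TPM in Caco-2 cells. APOH (2807 to 3208 against 647 to 767 TPM), APOM (1586 to 2363 against 172 to 289 TPM), APOA5 (33.8 to 73.8 against 3.84 to 9.55 TPM), APOC1 (284 to 339 against 169.9 to 192 TPM) and LCAT (54.7 to 96.6 against 3.72 to 5.48 TPM), the enzyme that esterifies plasma cholesterol, were also higher in HepG2 cells.

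APOC3, the inhibitor of lipoprotein lipase, was instead higher in Caco-2 cells, at 835, 801 and 663 TPM in Caco-2 and 376, 473 and 436 TPM in HepG2 cells, as was PLTP, the phospholipid transfer protein, at 134 to 188 TPM in Caco-2 and 22.8 to 28.8 TPM in HepG2 cells. APOC2, which activates the same lipase, was among the leading HepG2 genes above. APOE was at 3401 to 3523 TPM in Caco-2 and 2302 to 2633 TPM in HepG2 cells, a call lost under median-of-ratios scaling (adjusted p = 0.0789). SCARB1, the receptor of high-density lipoprotein, was at 192 to 254 TPM in Caco-2 and 217 to 245 TPM in HepG2 cells and was not called.

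In amino acid breakdown and the urea cycle, all 20 listed genes were tested, 10 were higher in HepG2 cells, 6 in Caco-2 cells and 4 were not called (median difference -0.53). HPD, an enzyme of tyrosine breakdown, was at 89.4, 74.1 and 75.4 TPM in HepG2 cells and at 0.13, 0 and 0.15 TPM in Caco-2 cells. TAT, tyrosine aminotransferase, was at 5.32 to 6.02 TPM in HepG2 and 0.04 to 0.35 TPM in Caco-2 cells. PRODH, proline dehydrogenase, was the reverse, at 50.6, 40.01 and 24.7 TPM in Caco-2 cells and at 0.28, 0.04 and 0.06 TPM in HepG2 cells. TDO2, which opens the ring of tryptophan, was at 1.79, 1.38 and 2.21 TPM in Caco-2 cells and listed at 0 in HepG2 cells.

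The steps of the urea cycle stood at unequal levels within each line. CPS1, which fixes ammonia, was at 10.8, 8.37 and 2 TPM in Caco-2 and 10.3, 9.73 and 11.6 TPM in HepG2 cells and was not called. OTC, the next enzyme, was at 0.14, 0.1 and 0.17 TPM in Caco-2 and 2.33, 3.06 and 0.23 TPM in HepG2 cells. ASS1 (112 to 127 against 66.4 to 96.01 TPM) and ASL (148 to 160.2 against 105 to 114 TPM) were higher in Caco-2 cells, the former not under median-of-ratios scaling (adjusted p = 0.0627). ARG1, the last step, was at 0, 0.16 and 0 TPM in Caco-2 and 0.75, 1.52 and 1.01 TPM in HepG2 cells. GLUL, glutamine synthetase, was at 988, 958 and 723 TPM in Caco-2 and 1015, 1087 and 1133 TPM in HepG2 cells and was not called.

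Bile acid genes favoured HepG2 cells, with 13 of 17 tested higher there and 4 higher in Caco-2 cells (median difference -2.18). CYP27A1, of the alternative synthesis pathway, was at 343, 388 and 334 TPM in HepG2 cells and at 94.02, 87.8 and 56.7 TPM in Caco-2 cells. NR0B2 (SHP), the repressor that FXR induces, was at 182, 388 and 84.3 TPM in HepG2 and 5.69, 4.49 and 2.53 TPM in Caco-2 cells. CYP7A1, the rate-limiting enzyme of the classical pathway, was at 11.9, 16.2 and 0.53 TPM in HepG2 cells and at no more than 0.03 TPM in Caco-2 cells. CYP8B1, which sets the share of cholic acid, was at 3.86, 3.89 and 1.89 TPM in HepG2 and 0.05, 0.2 and 0.02 TPM in Caco-2 cells. In CYP7A1 and OTC, HepG2 replicate 3 was far below the other HepG2 libraries, and both calls were lost when any of several single libraries was left out, with adjusted p up to 0.0644 for CYP7A1 and 0.127 for OTC.

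The hormone FGF19 and its co-receptor were higher in opposite lines. FGF19, which the gut secretes to signal bile acid load to the liver, was at 1.88, 1.29 and 3.93 TPM in Caco-2 cells and at 0.26, 0.09 and 0 TPM in HepG2 cells. KLB, the co-receptor beta-klotho, was at 55.8, 66.1 and 66.1 TPM in HepG2 cells and at 9.63, 10.6 and 3.87 TPM in Caco-2 cells, whereas the receptor FGFR4 was abundant in both, at 123 to 176 TPM in Caco-2 and 205 to 228 TPM in HepG2 cells. The FGFR4 call (higher in HepG2 cells) was lost without HepG2 replicate 2 (adjusted p = 0.05 after rounding, just above the threshold). SLC51B, a subunit of the basolateral bile acid exporter of the gut, was at 31.7 to 38.3 TPM in Caco-2 and 5.28 to 12.9 TPM in HepG2 cells. SLC10A1 (NTCP), the bile acid importer of hepatocytes, was at 6.54, 3.51 and 4.42 TPM in Caco-2 cells and did not exceed 0.02 TPM in HepG2 cells.

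In sugar metabolism, 9 of 19 tested genes were higher in Caco-2 cells, 8 in HepG2 cells and 2 were not called. The shares over all genes tested were 40.0% and 24.2%, the former near that of this list. Some isoforms differed in opposite directions. HK1 was at 18.7, 19.6 and 29.9 TPM in Caco-2 cells and at 0.62, 1.1 and 2.48 TPM in HepG2 cells. HK2 was the reverse, at 9.17, 10.5 and 9.51 TPM in Caco-2 and 41.7, 43.6 and 56.6 TPM in HepG2 cells. HKDC1 was at 70.7 to 78.03 TPM in Caco-2 and 16.5 to 36.7 TPM in HepG2 cells. The hexokinases thus had a different leading member in each line. G6PC, the phosphatase that releases glucose, was at 21.2, 31.8 and 26.6 TPM in HepG2 cells and at 0.09, 0.03 and 0.11 TPM in Caco-2 cells. Its transporter partner SLC37A4 was at 163 to 220.03 TPM in Caco-2 and 41.4 to 49.8 TPM in HepG2 cells.

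PCK1 (3.28 to 9.92 against 0.81 to 1.97 TPM) and PCK2 (475 to 666 against 164 to 322 TPM) were higher in HepG2 cells, and FBP1 was higher in Caco-2 cells (5.77 to 7.64 against 1.02 to 2.44 TPM). The liver pyruvate kinase PKLR was at 24.9 to 27.9 TPM in HepG2 and 1.4 to 2.01 TPM in Caco-2 cells, while the general form PKM was far above it in both lines, at 806 to 939 TPM in Caco-2 and 410.4 to 657 TPM in HepG2 cells.

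Drug metabolism genes were mostly higher in HepG2 cells. Of 23 cytochrome P450 and reductase genes, 14 were tested, 9 were higher in HepG2 cells, 4 in Caco-2 cells and 1 was not called (median difference -1.19). CYP4F12 (32.3 to 52.5 against 0.21 to 1.61 TPM) and CYP2J2 (13 to 16.2 against 0.65 to 1.28 TPM) were on the HepG2 side, with POR, the electron donor of these enzymes, at 535 to 643 TPM in HepG2 and 271 to 289 TPM in Caco-2 cells. CYP2S1 (61.6 to 75.1 against 3.29 to 5.02 TPM) and CYP3A5 (10.9 to 18.3 against 2.43 to 4.33 TPM) were higher in Caco-2 cells. CYP1A1 was at 47.1, 100.4 and 112 TPM in Caco-2 and 27.4, 28.2 and 52.7 TPM in HepG2 cells, ranges that overlapped and a call lost in the fit of all 23 libraries (adjusted p = 0.0669). The 9 untested members included CYP3A4 and CYP2E1.

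Of 32 tested conjugating and hydrolysing enzymes, 17 were higher in HepG2 cells, 8 in Caco-2 cells and 7 were not called (median difference -0.49). Glucuronosyl and sulfotransferases were on the HepG2 side. UGT2B10 was at 49.01, 36.4 and 38.4 TPM in HepG2 and 0.03, 0.06 and 0.17 TPM in Caco-2 cells. UGT2B7 was at 41.3 to 83.3 TPM in HepG2 and 1.68 to 2.99 TPM in Caco-2 cells, and UGT2A3 at 66.5 to 75.5 TPM in HepG2 and 2.79 to 3.75 TPM in Caco-2 cells. SULT1A1, which sulfates phenols, was at 222, 197 and 137 TPM in HepG2 and 9.7, 7.26 and 4.29 TPM in Caco-2 cells. SULT2A1, which sulfates steroids, was at 83.4 to 166 TPM in HepG2 and 20.8 to 23.7 TPM in Caco-2 cells. UGT genes resemble each other closely, so their values are less certain. UGT1A1 was at 17.6, 20.2 and 1.27 TPM in HepG2 cells, with replicate 3 near the Caco-2 level of 0.56 to 1.2 TPM, and its call was lost without single libraries (adjusted p up to 0.106).

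Of the listed glutathione transferases, 3 of 3 tested alpha-class genes were higher in Caco-2 cells, and of 3 tested mu-class genes 2 were higher in HepG2 cells and 1 was not called. GSTA2 was at 320.3, 256 and 258 TPM in Caco-2 cells and at 17.7, 11.5 and 2.69 TPM in HepG2 cells. GSTA1, a close copy, was at 357, 256 and 79.04 TPM in Caco-2 and 25.8, 24.6 and 6.12 TPM in HepG2 cells. The third alpha-class gene, GSTA4, differed little, at 63.9 to 70.02 TPM in Caco-2 and 43.7 to 52.9 TPM in HepG2 cells, a call lost under median-of-ratios scaling (adjusted p = 0.079). Of the mu class, GSTM2 was at 11.2 to 14.01 TPM in HepG2 and 0 to 0.43 TPM in Caco-2 cells, and GSTM3 at 130.4 to 214 TPM in HepG2 and 61.3 to 70.2 TPM in Caco-2 cells. The pi class has GSTP1 alone, described above. MGST3 was at 349 to 465 TPM in Caco-2 and 61.98 to 79.8 TPM in HepG2 cells. The carboxylesterases, which cleave ester drugs, were likewise opposite. CES1 was at 449 to 547 TPM in Caco-2 and 219 to 286 TPM in HepG2 cells. CES2 was at 88.5 to 97.03 TPM in Caco-2 and 166 to 284 TPM in HepG2 cells. ADH6 was at 115 to 121 TPM in HepG2 and 14.5 to 18.9 TPM in Caco-2 cells.

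Of 18 tested drug transporters, 11 were higher in HepG2 cells, 4 in Caco-2 cells and 3 were not called (median difference -1.13). SLC47A1 (MATE1), a cation exporter, was at 77.6, 96.6 and 78.7 TPM in HepG2 cells and at 0.77, 0.86 and 0.57 TPM in Caco-2 cells. SLC22A3 was at 39.97 to 54.3 TPM in HepG2 and 1.49 to 1.92 TPM in Caco-2 cells. SLCO2B1, an anion importer of both organs, was at 448, 444 and 604 TPM in Caco-2 cells and at 16.5, 20.1 and 9.18 TPM in HepG2 cells. The efflux pumps ABCB1 (P-glycoprotein, 83.6 to 99.9 TPM in HepG2 and 21.7 to 44.3 TPM in Caco-2 cells) and ABCC2 (104 to 145 against 62.5 to 72.7 TPM) were higher in HepG2 cells and ABCC4 (38.3 to 47.6 against 9.29 to 10.9 TPM) in Caco-2 cells. ABCG2 was at 14.5, 16.97 and 13.6 TPM in Caco-2 and 18.9, 19.3 and 12.4 TPM in HepG2 cells and was not called.

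Fatty acid and triglyceride genes leaned to HepG2 cells, with 18 of 38 tested higher there, 8 in Caco-2 cells and 12 not called (median difference -0.42). Over all genes tested, 24.2% were higher in HepG2 and 40.0% in Caco-2 cells. FABP3, a fatty acid binding protein, was at 59.1, 45.02 and 28.9 TPM in Caco-2 and 0.19, 0.09 and 0.19 TPM in HepG2 cells. DGAT2, the last step of triglyceride synthesis, was at 289.5, 234 and 166 TPM in Caco-2 and 71.6, 78.3 and 23.01 TPM in HepG2 cells. The lipid droplet protein CIDEC was at 64.3 to 117 TPM in Caco-2 and 13.3 to 43.4 TPM in HepG2 cells. These genes of fatty acid binding and storage were on the Caco-2 side.

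PLIN2, the coat protein of lipid droplets, was higher in HepG2 cells, at 313, 287 and 419 TPM in HepG2 and 119, 135 and 137 TPM in Caco-2 cells. The acyl-CoA synthetase ACSL4 was at 94.9 to 119 TPM in HepG2 and 14.1 to 20.5 TPM in Caco-2 cells, and FASN, fatty acid synthase, at 49.7 to 65.8 TPM in HepG2 and 21.7 to 30.5 TPM in Caco-2 cells. ACSL1 was at 28.1, 30.5 and 45.7 TPM in Caco-2 and 63.4, 64.2 and 29.9 TPM in HepG2 cells and was not called, with the lowest HepG2 value in replicate 3. Without that library it was called higher in HepG2 cells (log2 difference -0.89, adjusted p = 0.00898).

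Iron and metal genes favoured HepG2 cells, with 15 of 22 tested higher in HepG2 cells, 6 in Caco-2 cells and 1 not called (median difference -1.98). HEPH (hephaestin), the ferroxidase of intestinal iron export, was at 60.7, 52.5 and 35.9 TPM in Caco-2 cells and at 0.13, 0.15 and 0 TPM in HepG2 cells. The exporter SLC40A1 (ferroportin) was at 141, 121 and 111 TPM in Caco-2 and 25.4, 24.1 and 44.2 TPM in HepG2 cells. TFRC, the transferrin receptor of dividing cells, was at 227 to 291 TPM in Caco-2 and 102 to 141 TPM in HepG2 cells, whereas TFR2, the hepatic receptor, was at 119, 143 and 122 TPM in HepG2 cells and at 5.4, 4.68 and 2.76 TPM in Caco-2 cells.

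Most metallothioneins, small cysteine-rich proteins that bind zinc and copper, were higher in HepG2 cells. MT2A was at 889, 474 and 1047 TPM in HepG2 cells and at 4.19, 12.3 and 4.74 TPM in Caco-2 cells. MT1G was nearly absent from Caco-2 cells, at 233, 124 and 121 TPM in HepG2 and 0, 0.57 and 0 TPM in Caco-2 cells. MT1E and MT1X followed the same direction. MT1X was at 94.8, 57.2 and 133 TPM in HepG2 and 4.82, 2.28 and 3.69 TPM in Caco-2 cells. MT1E was at 102, 52.1 and 58.1 TPM in HepG2 and 0, 0.48 and 0.43 TPM in Caco-2 cells. These copies lie side by side and resemble each other, so reads may be shared among them. The zinc importer SLC39A4 was at 408 to 482 TPM in HepG2 and 8.37 to 31.1 TPM in Caco-2 cells.

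Oncofetal genes were active in both lines. Of 17 tested, 9 were higher in HepG2 cells, 6 in Caco-2 cells and 2 were not called (median difference -0.52). GPC3 (glypican-3), a marker of hepatocellular carcinoma, was at 4490.2, 5039 and 4261 TPM in HepG2 cells and at 1210.01, 1088 and 972 TPM in Caco-2 cells. The imprinted PEG10 was at 697, 613 and 397 TPM in HepG2 and 169, 155 and 152 TPM in Caco-2 cells. IGF2, the fetal growth factor, was at 233, 223 and 182 TPM in Caco-2 and 160.5, 162 and 264 TPM in HepG2 cells and was not called with all libraries, but was called higher in Caco-2 cells without HepG2 replicate 3 (log2 difference 0.39, adjusted p = 0.0267). IGF2BP1, which binds its mRNA, was at 138 to 155 TPM in Caco-2 and 61.5 to 78.1 TPM in HepG2 cells. H19, the imprinted neighbour of IGF2, did not exceed 0.14 TPM in Caco-2 cells and was listed at 0 in HepG2 cells. The IGF binding proteins were divided, IGFBP6 at 96.5 to 158 TPM in Caco-2 and 9.75 to 11.3 TPM in HepG2 cells and IGFBP7 at 15.5 to 18.9 TPM in Caco-2 and 0.1 to 0.41 TPM in HepG2 cells in favour of Caco-2 cells, and IGFBP1 and IGFBP2 (17.02 to 61.4 against 3.78 to 13.8 TPM) in favour of HepG2 cells. The IGFBP2 call was lost when single libraries were left out (adjusted p up to 0.054).

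The Wnt/beta-catenin pathway controls stem cells of the crypt and the zones of the liver lobule, and the pathway is known to be activated by mutation in both lines. Its target genes were on both sides. Of 25 tested, 10 were higher in Caco-2 cells, a share equal to the 40.0% of all genes, 11 were higher in HepG2 cells, against 24.2% of all genes, and 4 were not called (median difference -0.41). NOTUM, a secreted Wnt inhibitor, was at 409.9, 459 and 571 TPM in HepG2 cells and at 4.9, 2.75 and 4.89 TPM in Caco-2 cells. LGR5, the crypt stem cell receptor, was at 98.4, 106 and 93.5 TPM in HepG2 and 15.3, 14.5 and 8.74 TPM in Caco-2 cells. These Wnt antagonist and stem cell genes were on the HepG2 side, as was NKD1, a feedback inhibitor. NKD1 was at 80.4, 76.5 and 91.6 TPM in HepG2 and 17.4, 10.3 and 11.1 TPM in Caco-2 cells. RNF43 (-0.64), ZNRF3 (-0.79), SP5 (-1.33) and MYC (-1.30) had smaller log2 differences in favour of HepG2 cells.

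DKK1, another secreted inhibitor, was at 1251, 1444 and 1369.99 TPM in Caco-2 cells and at 94.9, 60.1 and 52.8 TPM in HepG2 cells. ASCL2, the crypt stem cell factor, was at 31.5, 22.4 and 25.2 TPM in Caco-2 and 0.09, 0 and 0.06 TPM in HepG2 cells. EPHB2, which positions cells in the crypt, was at 33.02, 27.9 and 25.7 TPM in Caco-2 and 0.2, 0.12 and 0.09 TPM in HepG2 cells. LEF1 (16.9 to 19.5 against 0.61 to 2.81 TPM), CD44 (15.2 to 23.02 against 0.22 to 1.99 TPM) and CCND1 (252 to 311 against 136 to 188 TPM) were also higher in Caco-2 cells. AXIN2, a target in many tissues, was at 20.3, 18.6 and 22.9 TPM in Caco-2 and 24.1, 22.4 and 38.7 TPM in HepG2 cells and was not called, but was called higher in HepG2 cells under median-of-ratios scaling (adjusted p = 0.0492). Of the inhibitors described here, NOTUM and NKD1 were thus higher in HepG2 cells and DKK1 in Caco-2 cells. The targets RNF43 and ZNRF3 were also higher in HepG2 cells, by less.

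**Figure D5:**
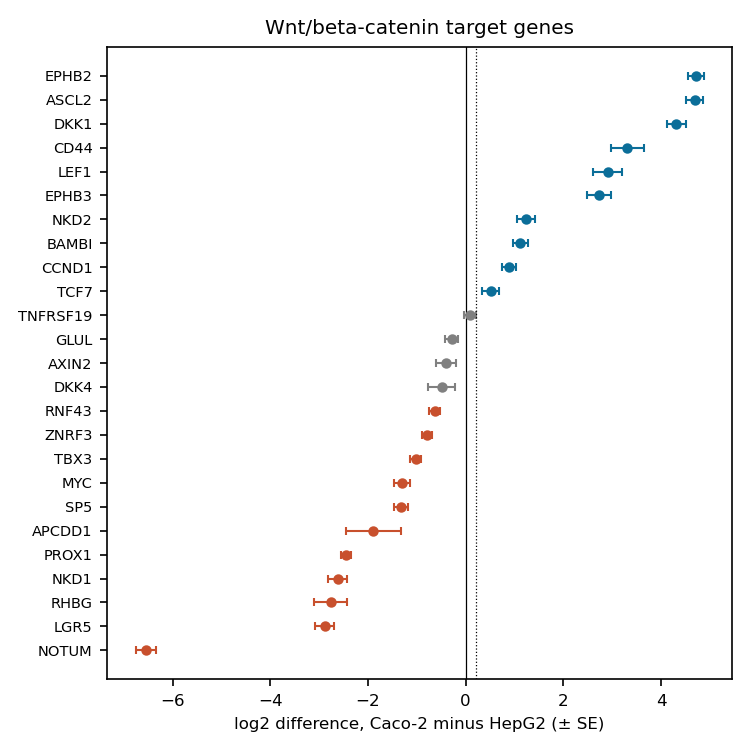
Points give the log2 difference of Caco-2 minus HepG2 with its standard error (n = 3 libraries per line) for the tested Wnt/beta-catenin targets, blue where called higher in Caco-2, red where called higher in HepG2 and grey where not called. The dotted line is the median of all genes tested, 0.22, and the targets lie on both sides of 0.

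Cell cycle genes favoured Caco-2 cells, with 22 of 31 higher there, 4 higher in HepG2 cells and 5 not called (median difference 0.89). CDK1 was at 274, 275 and 305 TPM in Caco-2 cells and at 58.6, 78.03 and 68.2 TPM in HepG2 cells. CCNB1 (cyclin B1) was at 478, 486 and 450.04 TPM in Caco-2 and 112, 149 and 104 TPM in HepG2 cells. MCM6, of the replication helicase, was at 61.7, 67.8 and 50.5 TPM in Caco-2 and 12.3, 9.45 and 12.4 TPM in HepG2 cells. All these genes of replication and mitosis were higher in Caco-2 cells, as was MKI67, at 20.4 to 24.8 TPM in Caco-2 and 6.55 to 10.1 TPM in HepG2 cells. CCNE1 (39.5 to 47.7 against 22.8 to 25.9 TPM) and CDK6 (63.3 to 87.5 against 37.5 to 47.2 TPM) were higher in HepG2 cells. PCNA, the replication clamp, was at 167 to 179 TPM in Caco-2 and 188 to 220.2 TPM in HepG2 cells with a call (higher in HepG2 cells) that was lost in the fit of all 23 libraries (adjusted p = 0.461). Of 16 housekeeping genes, 11 were higher in Caco-2 cells and 5 were not called (median difference 0.50), and under median-of-ratios scaling 6 were higher in Caco-2 and 2 in HepG2 cells. RPLP0 was at 1585 to 1767 TPM in Caco-2 and 990.2 to 1072 TPM in HepG2 cells. EEF1A1 was at 3583 to 4129 TPM in Caco-2 and 2882 to 3465 TPM in HepG2 cells and B2M at 1247 to 1415 TPM in Caco-2 and 1366 to 1729.7 TPM in HepG2 cells. EEF1A1 and B2M were not called.

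Markers of other cell types were checked, because the extraction text of the labels speaks of myoblasts. MYOD1, MYOG and MYF5, the defining factors of muscle, were listed at 0 in all 6 libraries, and DES stayed at or below 0.76 TPM. The muscle actin ACTA1 was at 21.2, 8.09 and 38.6 TPM in HepG2 cells and 0 to 0.32 TPM in Caco-2 cells, and the 6 listed muscle genes summed to 0.47 to 0.91 TPM in Caco-2 and 10.3 to 40.5 TPM in HepG2 libraries. The fibroblast list summed to 49.4 to 79.8 TPM in Caco-2 and 5.69 to 21.6 TPM in HepG2 libraries, led by COL1A1 (47.4, 31.3 and 31.4 TPM in Caco-2 and 0.76, 0.89 and 2.17 TPM in HepG2 cells) and LUM (5.81 to 14.6 against 0.13 to 1.61 TPM), with COL1A2 at 0.12 to 0.95 TPM in Caco-2 and 0 to 2.15 TPM in HepG2 cells.

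The endothelial list summed to 4.24 to 8.53 TPM in Caco-2 and 0.11 to 0.71 TPM in HepG2 libraries, nearly all of it PECAM1 (4.16 to 8.38 TPM in Caco-2 cells), with KDR and VWF no higher than 0.17 TPM. The leukocyte list summed to 19.8 to 36.1 and 21.2 to 26.6 TPM, with PTPRC (CD45) no higher than 0.09 TPM and CD14 at 11.8 to 14.2 TPM in Caco-2 and 2.94 to 3.84 TPM in HepG2 cells. Among goblet, Paneth and enteroendocrine markers, 9 of 11 stayed under 1 TPM in all 6 libraries and 5 were at 0, MUC2 did not exceed 0.02 TPM, and CHGA was listed at 0. TFF3 and AGR2, which goblet cells also make and which are counted above with the surface proteins, were high in Caco-2 cells. LYZ (lysozyme) was high in HepG2 cells, at 1164, 1044 and 1003 TPM against 44.02, 49.01 and 41.4 TPM in Caco-2 cells. The part of other cells in the differences above was not tested.

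By chromosome, the median log2 difference was highest on chromosomes 11 (0.77), 12 (0.74) and 10 (0.64) and lowest on chromosomes 18 (-0.27) and 6 (-0.069), against 0.22 over all genes. On chromosome 11, 545 of 876 tested genes were higher in Caco-2 and 99 in HepG2 cells. On chromosome 12 the numbers were 506 and 96 of 834, and on chromosome 18 they were 60 and 90 of 221. GSTP1 lies on chromosome 11 and LDHB on chromosome 12. These medians are descriptions with no test.

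The same difference was measured in the other 3 conditions, which share no library with the mono-culture controls. Of the 1241 genes at least 4-fold higher in Caco-2 cells, 1231 were also called higher in Caco-2 cells in mono-culture with FFAs, 1222 in co-culture without FFAs and 1234 in co-culture with FFAs. Of the 811 genes at least 4-fold higher in HepG2 cells, 806, 787 and 795 were called again. Co-culture without FFAs held only 2 Caco-2 libraries. No gene of either group was called in the opposite direction. Of all genes called in the controls and tested again, 97.0% to 99.8% kept their direction. At most 4 per condition and direction were called in the opposite one. Fewer were called again. Higher in Caco-2 cells again were 5231 of 6095 in mono-culture with FFAs. In co-culture they were 5118 of 6106 without FFAs and 5064 of 6103 with FFAs. Higher in HepG2 cells again were 2923 of 3661, 2666 of 3601 and 2731 of 3607, in the same order of conditions.

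CDX2 and ALB kept levels near those of the controls. CDX2 was at 71.6 to 136 TPM in Caco-2 cells in mono-culture with FFAs and at 78.4 to 106 TPM in co-culture with FFAs, and did not exceed 0.73 TPM in any HepG2 library of the series. ALB was at 25698 to 32224 TPM in HepG2 cells in mono-culture with FFAs and at 23184 to 28982 TPM in co-culture with FFAs.

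The leading HepG2 genes were less uniform in Caco-2 cells kept in co-culture. The 12 genes summed to 21.9 to 38.4 TPM in the Caco-2 controls and to 24.6 to 37.1 TPM in mono-culture with FFAs. In co-culture without FFAs the sum was 166 TPM in replicate 1 and 25.4 TPM in replicate 2, and in co-culture with FFAs it was 426, 52.9 and 35.1 TPM in replicates 1, 2 and 3. Replicate 1 of both co-culture conditions held the highest value of its group for 12 of 12 genes, each above the highest control. In co-culture with FFAs, for instance, A2M reached 78.1, TF 133, AMBP 62.04, SPP1 39.6 and DLK1 19.2 TPM there. The 12 leading Caco-2 genes summed to 4.38 to 12.9 TPM in the HepG2 controls, to 8.4 to 18 TPM in mono-culture with FFAs, to 9.55 to 14.6 TPM in co-culture without FFAs, and to 54.1, 15.8 and 38.02 TPM in the 3 libraries of co-culture with FFAs. GSTP1 ranged from 3.97 to 19.6 TPM in the latter. The difference of these sums between conditions was not tested, and no co-culture library enters the comparison of the controls.

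Whether the difference between the lines changed from mono-culture control to co-culture with FFAs was tested as an interaction over 15979 genes. limma called 1 gene, 0.00626% of those tested, at an adjusted p under 0.05, and 1259 genes had an unadjusted p under 0.05. The gene was CU634019.6, a pseudogene on chromosome 21 that was under the level of testing in the controls. The number of such genes was 0 with a pseudocount of 0.1 or with the replicate number as a block, and 0 to 3 when single libraries were left out.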

How the data were processed

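mRNA from Caco-2 and HepG2 cells was sequenced in 23 libraries of the 1-day experiment, of which the 6 mono-culture controls were compared here. Per the methods of the study and the submitters' processing notes, the authors discarded reads from rRNA, tRNA and the mitochondrial genome with Bowtie2 2.1.0, mapped what was left with STAR 2.7.1a (GRCh38, Ensembl 98) and deposited TPM per gene from RSEM 1.3.0. TPM divide by transcript length and by the total of the library, so a few very abundant genes lower all others, and they keep no depth, so no counting interval could be given. The 37 mitochondrial genes were listed at 0.

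Genes whose mean reached 1 TPM in either line were tested with limma 3.58.1 (R 4.3.3, eBayes with a trend, two-sided) on log2(TPM + 1), Caco-2 minus HepG2, with Benjamini-Hochberg adjustment at 0.05. The script was tested on simulated data. Tables, sequences and figures were made with Python 3.11.15, pandas 2.3.3 and matplotlib 3.10.9. Positions came from GENCODE 44, in which 60295 of the 60564 genes of the files were found.

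The members and gene lists were chosen with earlier results of these data known. Named genes were the 6 markers, the 12 genes with the largest called differences without overlap in each direction, the 8 most abundant genes of each line, the 5 genes of at least 500 TPM in all 6 libraries with the smallest differences and, in each list, up to 4 called members with the largest difference in each direction, members whose mean reached 100 TPM in either line, and any tested member of a list of at most 20. Not every gene that this rule takes is printed, and genes outside it are named as such. The alternatives were a pseudocount of 0.1, no filter and a filter of 5 TPM, median-of-ratios scaling, quantile normalization, limma without the trend, all 23 libraries in one fit, the replicate number as a block, and leaving out each library. Some genes, 1 gene list and 1 sequence motif are not reported here, the CCAAT motif was added after the values were seen, and the 7-day experiment of the study was not analysed here.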

Additional observations from a re-analysis of the deposited data

Results flagged for a closer look

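In the test of whether the difference between the lines changed between conditions, 1 gene passed, CU634019.6 (ENSG00000280330, chr21:7129103-7130287), annotated as a pseudogene. The log2 difference of Caco-2 minus HepG2 in co-culture with FFAs minus that in the mono-culture controls was -2.273 ± 0.265 (SE, n = 3 libraries per group, limma interaction over 15979 genes, adjusted p = 0.0308). The gene was listed at 0 in all 3 HepG2 mono-culture controls and at 4.06, 3.73 and 4.75 TPM in the 3 HepG2 libraries of co-culture with FFAs, while Caco-2 libraries of both conditions were at 0.2 to 0.68 TPM. It was also listed at 0 in replicate 3 of HepG2 co-culture without FFAs and in replicate 3 of HepG2 mono-culture with FFAs, whose other replicates were at 3.21 to 5.53 TPM. It reached the level of testing only through the HepG2 libraries in which it was high. With a pseudocount of 0.1 and with the replicate block 0 genes passed, as with 7 of the 12 libraries left out in turn, so no change of the difference is drawn from it. Whether a 0 in these files is a failed estimate cannot be told from TPM, and the cause of the zeros was not tested.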

How the results depend on the processing

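The counts of genes called higher in each line stayed within 1.5 times of 6199 and 3759 under every alternative tried, at 4892 to 6456 for Caco-2 and 2862 to 4932 for HepG2. With a pseudocount of 0.1, the genes at least 4-fold higher rose to 1989 for Caco-2 and 1433 for HepG2, since a smaller pseudocount widens the differences of low genes. Leaving out 1 library gave 5473 to 5987 genes higher in Caco-2, 3318 to 3891 higher in HepG2, and 1205 to 1247 and 793 to 837 at least 4-fold higher. Where 2 libraries of a line were left, the spread was pooled over both lines. The interaction gave 0 genes with a pseudocount of 0.1, 2 without the trend and 0 to 3 with 1 library left out (it stayed at 1 only without replicate 2 of HepG2 in co-culture with FFAs). The cause was not tested. The labels do not say whether the replicate numbers pair the libraries. Deviations of same-numbered libraries of the lines correlated at 0.041, 0.082 and 0.142. Libraries with unlike numbers correlated at -0.131 to 0.0639, and the only positive value was that of Caco-2 replicate 1 with HepG2 replicate 2. In both lines replicate 3 listed the most genes above 0 TPM. It listed 22637 in Caco-2 cells, against 21042 and 21596 in replicates 1 and 2, and 21884 in HepG2 cells, against 20262 and 20873. Whether libraries of the same number share a batch was not tested. The replicate block gave 6254 and 3839 genes, 1245 and 816 at least 4-fold, and 0 genes for the interaction. Of 247 named genes that were called, 0 changed direction under any alternative, 14 lost the call under at least 1 alternative that kept all libraries, and 11 when a library was left out. Signs turned only for named genes that were not called. Under median-of-ratios scaling the log2 difference was -0.094 for APOA1, -0.19 for H3F3B, -0.18 for RPL23, -0.17 for EIF4A1 and -0.045 for IGF2. Under quantile normalization it was -0.091 for H3F3B, -0.035 for RPL23, -0.050 for EIF4A1 and -0.016 for IGF2. APOA1 was called higher in Caco-2 cells there (1.38), by its rank and not its TPM. With 1 library left out it ranged from -0.079 to 0.42 for APOA1, -0.11 to 0.078 for H3F3B, -0.049 to 0.0062 for HINT1, -0.19 to 0.14 for RPL23, -0.11 to 0.054 for RPS12, -0.0060 to 0.052 for EIF4A1 and -0.097 to 0.10 for SCARB1. HepG2 replicate 3 stood apart in several named genes, and without it HPX and IGF2 were called higher in Caco-2 cells and ACSL1 and HOXC9 higher in HepG2 cells. Caco-2 replicate 3 stood apart in others, such as APOA1, C3 and GSTA1. With 3 libraries per line and no depth, small differences could not be told from the spread between libraries.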
